A study of Mus musculus with 39 samples.

Results

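The genes described here are 9 members of the Notch pathway: the receptors Notch1, Notch2 and Notch3, the ligands Jag1 and Dll1, the DNA-binding partner Rbpj, and the target genes Hes1, Hey1 and Heyl. They were taken by gene symbol, and all 9 were found in both deposited tables, among 16979 genes in the table of labelling and inhibition and 13938 genes in the table of fixation. The study sequenced polyadenylated RNA of mouse hindlimb muscle and its stem cells (satellite cells) in 39 libraries of 10 groups, to set what these cells transcribe in the animal against what they hold once isolated. Labelling used Pax7CreER/+; UPRTHA/+ mice, in which a Cre driven by Pax7, a gene of satellite cells, switches on an enzyme that lets a cell use 4-thiouracil (4tU), a tagged form of uracil, in the RNA it is making.

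In 3 groups 4tU was injected into the animal, 6 h before harvest (the 6 h label), every 12 h for 1 d (the 1 d label) or every 12 h for 4 d (the 4 d label), and labelled RNA was pulled down from the RNA of whole hindlimb muscle. In the isolation label, 4tU was present during the roughly 6 h in which stem cells were purified, and labelled RNA was pulled down from the purified cells. The groups without pull-down were stem cells treated while they were isolated with alpha-amanitin, which blocks RNA polymerase II, or with DMSO as its control, the total RNA of the purified cells behind the isolation label (isolated cells), and that of whole hindlimb muscle. Each of these 8 groups held 4 libraries. In the fixation experiment, fixed cells came from mice perfused with 1% paraformaldehyde before the cells were sorted (n = 4, replicates 1, 3, 4 and 5), and unfixed cells were sorted from mice without perfusion (n = 3). The labels name the genotype for the injected mice, and for the fixation mice it was not found in them. They also do not say that replicates are separate animals, so p-values measure the spread between these libraries, which may be technical.

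Notch receptors sit on the cell surface and are cut when a ligand on a neighbouring cell binds them, first by an ADAM protease and then by the gamma-secretase complex. The freed intracellular part enters the nucleus, joins Rbpj and Mastermind coactivators on DNA, and switches on genes of the Hes and Hey families, which encode repressors of transcription. In adult mouse muscle the pathway is known to keep satellite cells quiescent, and loss of Rbpj there lets them differentiate without dividing first.

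Sequence upstream of a RefSeq start is shown for 3 members on which the results turn: Notch3, with the largest ratio between its highest and lowest group mean, and Notch2 and Rbpj, both lower with alpha-amanitin. These 3 were chosen after their values were seen. The windows come from RefSeq on GRCm38.p6, run 5′ to 3′ on the strand of the gene, begin 250 bases before the start and end where GENCODE annotates an exon or at the start itself. They lie at chr17:32166891-32167140 (minus strand), chr3:98013288-98013526 (plus strand) and chr5:53590096-53590213 (plus strand). The Rbpj window lies inside the annotated span of the gene (53555779 to 53657445), before an internal start. Capitals mark TGGGAA, core letters of the sequence that the Rbpj protein is known to bind.
Notch3: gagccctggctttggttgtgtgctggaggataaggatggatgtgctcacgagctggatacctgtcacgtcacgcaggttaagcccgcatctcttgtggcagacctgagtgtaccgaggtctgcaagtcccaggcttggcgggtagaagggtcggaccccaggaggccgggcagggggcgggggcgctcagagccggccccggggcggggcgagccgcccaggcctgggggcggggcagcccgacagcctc
Notch2: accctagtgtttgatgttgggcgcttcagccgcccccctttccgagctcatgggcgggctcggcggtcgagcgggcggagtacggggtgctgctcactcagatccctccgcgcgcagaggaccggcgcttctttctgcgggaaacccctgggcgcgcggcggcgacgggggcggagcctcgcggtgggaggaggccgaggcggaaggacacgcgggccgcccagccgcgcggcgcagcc
Rbpj: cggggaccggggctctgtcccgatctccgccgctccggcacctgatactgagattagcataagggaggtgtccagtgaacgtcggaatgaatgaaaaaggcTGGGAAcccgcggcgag
TGGGAA was searched on both strands. It stood in 2 of 8 member windows of 250 bases, which are overlapping windows of Rbpj, and in 21.6% of 32851 windows of all genes. The windows of Notch1, Notch2, Notch3, Jag1 and Dll1 did not hold these letters. Windows for Hes1, Hey1 and Heyl were not analysed here.

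Levels are given in RPKM as the authors deposited them, that is, reads divided by gene length and by scaled library size, so members can be compared per length. Reads recovered from these values numbered 2321903 to 7742378 per library in the isolation label, the shallowest group, and from 15307952 to 102619074 elsewhere. A member had at least 19 reads in every library, the lowest being Dll1 in the isolation label. In bulk RNA, fewer cells of a type and less RNA per cell cannot be told apart. Marker lists for 7 cell types were all measured in both tables, and no marker was at 0 in all libraries of a group. Summed satellite cell markers (8 genes) ran from 1227 to 2044 RPKM with alpha-amanitin and 1355 to 2005 with DMSO. They ran from 138 to 157 in the 6 h label, 64.2 to 67.8 in the 1 d label and 60.7 to 63.6 in the 4 d label, although the labels call the tissue of these samples stem cells, from 534 to 939.5 in the isolation label, from 1298 to 1327 in isolated cells and from 53.2 to 56.1 in whole muscle. Alpha-amanitin replicate 1 stood apart from its group, with a library scaling factor of 1.54 against 0.980, 0.920 and 0.917 in replicates 2, 3 and 4, and DMSO replicate 1 was the highest of its group for 7 of 9 members, so calls that rest on them are also given without them.

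Notch3 and Heyl were the most abundant members per length in isolated cells. Hey1, Rbpj, Notch2, Hes1, Notch1, Jag1 and Dll1 followed in that order of means. In whole muscle Hes1 led, then Rbpj, Hey1, Heyl, Dll1, Jag1, Notch3, Notch2 and Notch1. Means are ± SD over 4 libraries. Across the 8 groups normalised together, every member had a lower mean in the labels given in vivo and in whole muscle than in isolated cells. Notch3 averaged 72.9 ± 14.8 RPKM with alpha-amanitin, 86.1 ± 10.3 with DMSO, 1.94 ± 0.114, 2.02 ± 0.137 and 1.77 ± 0.101 in the 6 h, 1 d and 4 d labels, 26.6 ± 8.34 in the isolation label, 74.6 ± 2.22 in isolated cells and 0.641 ± 0.0927 in whole muscle. DMSO cells lay above isolated cells with a narrow gap (lowest 77.84 against highest 77.78 RPKM), and alpha-amanitin cells overlapped with both. The isolation label lay between the cells and the in vivo labels, which overlapped among themselves, and whole muscle was lowest. Notch2 averaged 8.58 ± 1.29 RPKM with alpha-amanitin, 18.2 ± 3.14 with DMSO, 2.81 ± 0.127, 0.873 ± 0.106 and 0.900 ± 0.143 in the 6 h, 1 d and 4 d labels, 4.88 ± 1.48 in the isolation label, 14.3 ± 0.384 in isolated cells and 0.612 ± 0.0186 in whole muscle. From the highest the order was DMSO, isolated cells, alpha-amanitin, isolation label, 6 h label, then the overlapping 4 d and 1 d labels, then whole muscle, with gaps between all others. Notch1 averaged 8.02 ± 1.82 RPKM with alpha-amanitin, 9.66 ± 1.38 with DMSO, 1.33 ± 0.122, 0.607 ± 0.0517 and 0.603 ± 0.0135 in the 6 h, 1 d and 4 d labels, 2.98 ± 0.787 in the isolation label, 7.02 ± 0.188 in isolated cells and 0.279 ± 0.0372 in whole muscle, with DMSO, alpha-amanitin and isolated cells joined by overlaps at the top and gaps below them except between the 1 d and 4 d labels.

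Among ligands, Jag1 averaged 6.22 ± 1.37 RPKM with alpha-amanitin, 5.26 ± 2.36 with DMSO, 2.81 ± 0.207, 1.03 ± 0.138 and 1.01 ± 0.0575 in the 6 h, 1 d and 4 d labels, 2.06 ± 0.725 in the isolation label, 5.72 ± 0.749 in isolated cells and 0.890 ± 0.0589 in whole muscle. Its libraries formed 2 blocks, from alpha-amanitin down to the isolation label and from the 1 d label down to whole muscle, each joined by overlaps. Dll1, a ligand of the Delta family, averaged 5.80 ± 1.88 RPKM with alpha-amanitin, 7.27 ± 1.19 with DMSO, 1.53 ± 0.159, 1.61 ± 0.135 and 1.55 ± 0.0865 in the 6 h, 1 d and 4 d labels, 2.25 ± 1.16 in the isolation label, 4.19 ± 0.704 in isolated cells and 1.63 ± 0.0964 in whole muscle, and each group's libraries overlapped those of the next from the highest to the lowest. Rbpj averaged 16.3 ± 2.75 RPKM with alpha-amanitin, 33.5 ± 5.68 with DMSO, 8.84 ± 0.281, 4.27 ± 0.205 and 3.67 ± 0.143 in the 6 h, 1 d and 4 d labels, 8.01 ± 1.80 in the isolation label, 21.8 ± 0.849 in isolated cells and 4.46 ± 0.0746 in whole muscle. DMSO, isolated and alpha-amanitin cells lay apart in that order from the top, then the overlapping 6 h and isolation labels, then whole muscle with the 1 d label, then the 4 d label.

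Of the targets, Heyl averaged 127 ± 26.4 RPKM with alpha-amanitin, 87.3 ± 15.5 with DMSO, 2.34 ± 0.447, 2.49 ± 0.132 and 1.56 ± 0.0822 in the 6 h, 1 d and 4 d labels, 30.5 ± 12.2 in the isolation label, 72.6 ± 3.37 in isolated cells and 2.05 ± 0.108 in whole muscle. Alpha-amanitin and DMSO overlapped at the top, and isolated cells and the isolation label followed with gaps, the first narrow (77.72 against 77.37 RPKM). The 6 h label overlapped with both the 1 d label and whole muscle, which lay apart from each other, and the 4 d label was lowest. Hey1 averaged 46.5 ± 13.8 RPKM with alpha-amanitin, 45.9 ± 9.78 with DMSO, 4.59 ± 0.149, 2.29 ± 0.125 and 1.86 ± 0.247 in the 6 h, 1 d and 4 d labels, 22.4 ± 7.34 in the isolation label, 26.9 ± 1.41 in isolated cells and 2.42 ± 0.214 in whole muscle. Alpha-amanitin cells overlapped with DMSO and, through replicate 1, with isolated cells, which overlapped with the isolation label, followed by the 6 h label alone and by whole muscle, 1 d and 4 d labels joined by overlaps. Hes1 averaged 48.3 ± 18.9 RPKM with alpha-amanitin, 17 ± 6.72 with DMSO, 6.40 ± 0.809, 5.84 ± 0.498 and 6.80 ± 1.04 in the 6 h, 1 d and 4 d labels, 20.1 ± 7.61 in the isolation label, 13.0 ± 1.28 in isolated cells and 6.22 ± 0.726 in whole muscle. Its groups were joined by overlaps except for 1 gap, between isolated cells and the 4 d label.

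**Figure D1:**
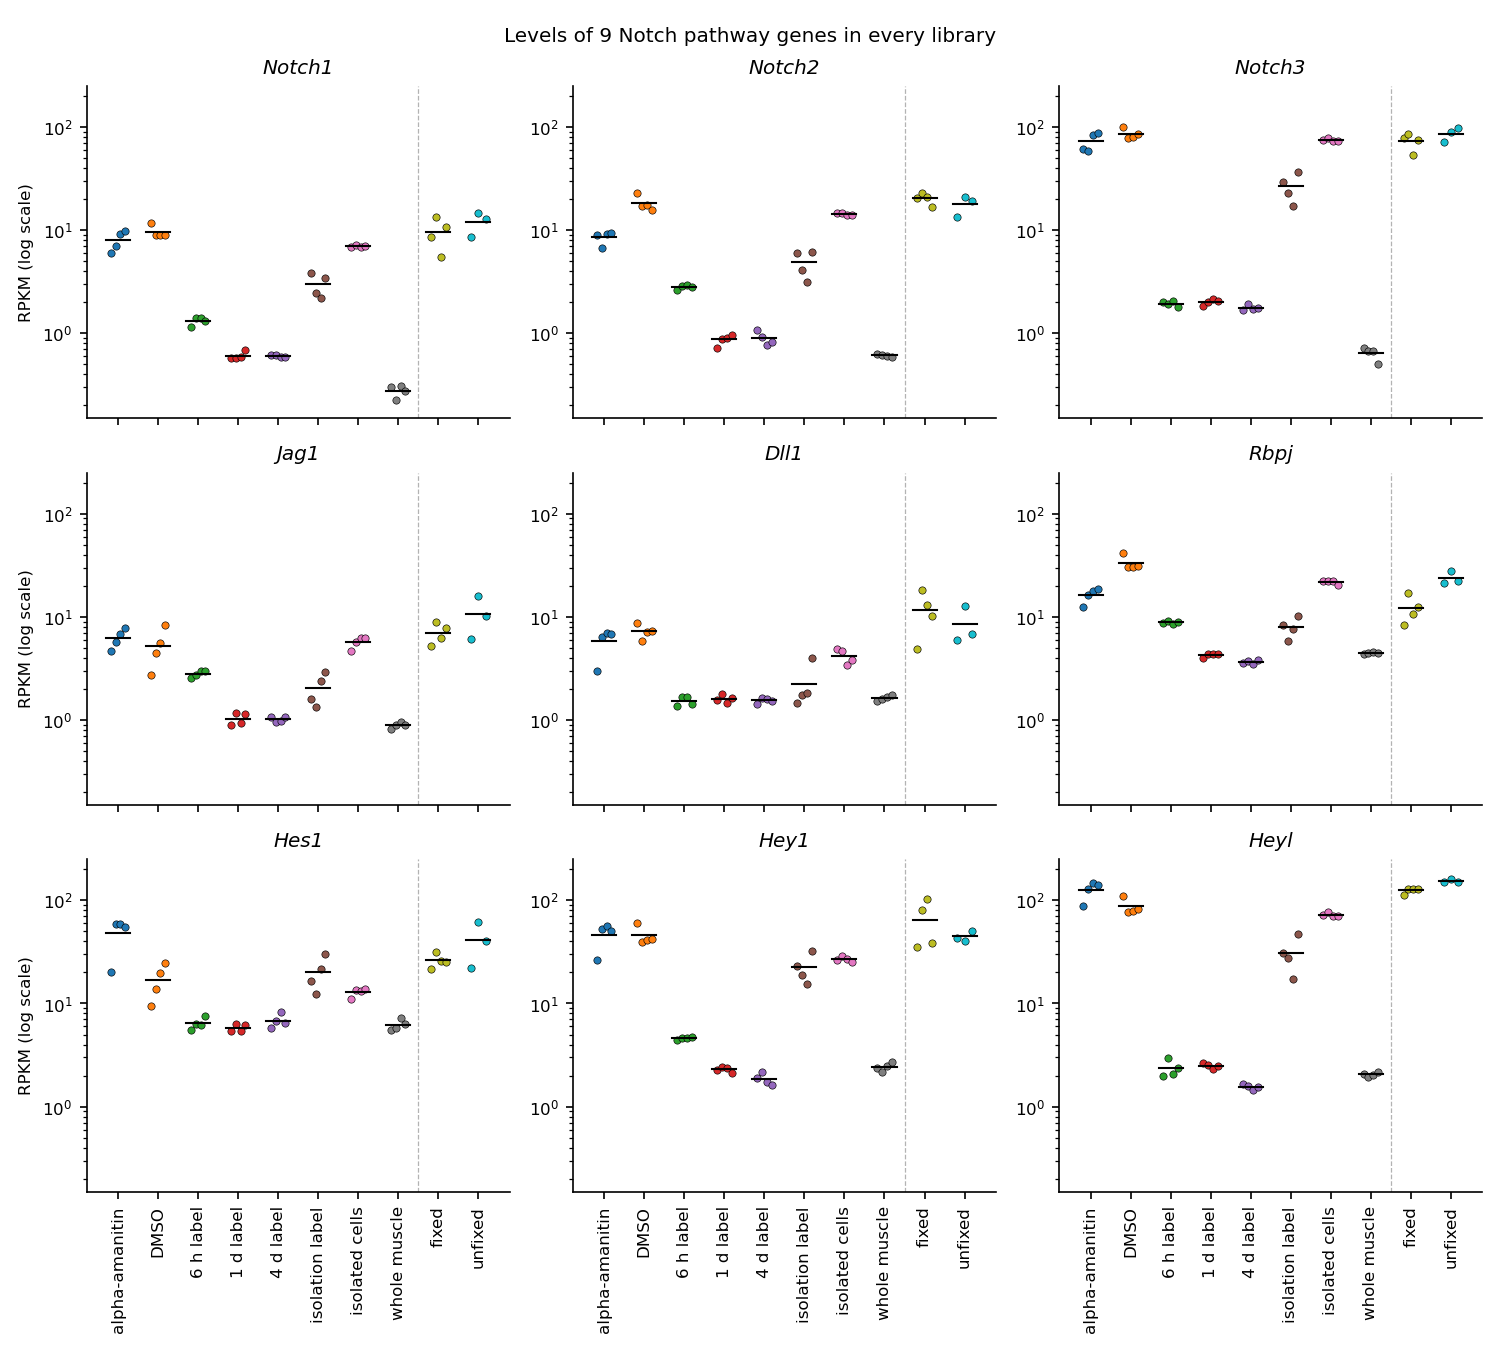
Levels of the 9 members in every library, in RPKM on a log axis, with 1 point per library, a line at the group mean, and the separately normalised fixation table right of the dashed line. Notch3 sits between 72.6 and 77.8 RPKM in isolated cells, against 0.505 to 0.713 RPKM in whole muscle.

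Isolated stem cells were set against whole muscle to compare the members' levels in RPKM. Such a ratio does not show which cells hold most of a gene's RNA. Notch3 (gene ENSMUSG00000038146, mm10 chromosome 17, 32120820 to 32166880, minus strand) stood at 74.1, 77.8, 72.6 and 73.8 RPKM in isolated cells, against 0.713, 0.677, 0.669 and 0.505 RPKM in whole muscle. The groups lay far apart, and limma gave a 66-fold rise (all folds are taken after adding 0.5 RPKM, which shrinks those of low genes; log2 change 6.04, SE 0.0578, adjusted p = 5.57e-16). Heyl, a Hes-related repressor gene (chromosome 4, 123233556 to 123249875, plus strand), stood at 72.3, 77.4, 70.6 and 69.9 RPKM in isolated cells, against 2.09, 1.93, 2.01 and 2.18 in whole muscle, a 28.6-fold difference with no overlap (adjusted p = 4.68e-16). All 9 members tested were called higher, beside 48.8% of all genes tested, and 0 lower, beside 46.5%. The groups did not overlap for 9 of 9 members tested, beside 93.7% of all genes. Of these members, Notch1, Notch2, Notch3 and Jag1 passed the filter on low values through isolated cells alone, so for them a difference was built in.

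The other receptors rose 13.3-fold (Notch2) and 9.67-fold (Notch1), Hey1 rose 9.37-fold and Rbpj 4.49-fold. The smallest rises were those of Jag1 (4.46-fold), Dll1 (2.18-fold) and Hes1 (2.0-fold). Hes1 (chromosome 16, 30064384 to 30067796, plus strand) stood at 11.1, 13.5, 13.3 and 13.9 RPKM in isolated cells, against 5.56, 5.78, 7.18 and 6.36 in whole muscle, apart but close (adjusted p = 1.81e-07). Summed satellite cell markers were 1298 to 1327 RPKM in isolated cells, against 53.2 to 56.1 in whole muscle, with 8 of 8 called higher. Summed markers of pericytes and smooth muscle, cells in which Notch3 is known to act, were 136 to 143 RPKM in isolated cells, against 117 to 126 in whole muscle, with 4 of 8 higher and 4 lower. Muscle fibre markers summed to 57.5 to 250.4 RPKM in isolated cells, against 126426 to 132735 in whole muscle (0 of 10 higher, 10 lower) and immune markers to 24 to 26.1 RPKM in isolated cells, against 732 to 814 in whole muscle (0 of 8 higher, 8 lower). The part of these cell types in the differences was not tested.

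Of 58 other genes of the pathway, 46 were tested in this comparison, 25 rose and 16 fell. Calcr, the calcitonin receptor known to hold mouse satellite cells quiescent, rose 68.5-fold to 46.2 ± 1.91 RPKM, against 0.182 ± 0.0289 in whole muscle. Dtx4, of the Deltex ubiquitin ligases that act on Notch, rose 33.6-fold, and Col5a3, a collagen V chain gene, rose 10.7-fold. Psenen, which encodes a gamma-secretase subunit, fell 9.65-fold, to 14.6 ± 0.915 RPKM in isolated cells, against 145 ± 6.78 in whole muscle (adjusted p = 1.73e-14).

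RNA pulled down after labelling in the animal was set against the total RNA of whole hindlimb muscle. The same 4 muscle libraries serve for every in vivo label, so they cannot be the matched input of each. After the 6 h label Notch2 stood at 2.63, 2.87, 2.92 and 2.82 RPKM, against 0.628, 0.623, 0.608 and 0.587 RPKM in whole muscle, and rose 2.98-fold (adjusted p = 8.29e-12). Its libraries lay apart from those of muscle. The other members that rose were Jag1 (2.38-fold), Notch1 (2.35-fold), Notch3 (2.15-fold), Rbpj (1.88-fold) and Hey1 (1.74-fold). So 6 of 9 members tested were called higher, beside 45.6% of all genes, and 0 lower, beside 44.4%. Libraries lay apart for 6 of 9 members tested, beside 86.2% of all genes. Notch1, Notch2, Notch3 and Jag1 again passed the filter through the label alone.

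Hes1 stood at 5.59, 6.34, 6.14 and 7.51 RPKM after the 6 h label, against 5.56, 5.78, 7.18 and 6.36 in whole muscle, with overlap (adjusted p = 0.70). Its log2 change of 0.04 turned to -0.17 with median-of-ratios factors, not called, and was called higher with library sizes from all reads (log2 0.36, adjusted p = 2.72e-04). Heyl averaged 2.34 ± 0.447 RPKM after the label, against 2.05 ± 0.108 (adjusted p = 0.147), and its change of 0.15 turned to -0.04 under the same factors, while it was called higher with those library sizes (0.41, adjusted p = 5.91e-04) and without 6 h label replicate 1 (0.21). Dll1 averaged 1.53 ± 0.159 RPKM after the label, against 1.63 ± 0.0964 in muscle, and its change of -0.07 was called in opposite directions by the scalings, lower with the factors (-0.24, adjusted p = 0.00288) and higher with the library sizes (0.18, adjusted p = 0.0160). Satellite cell markers summed to 138 to 157 RPKM in the 6 h label, against 53.2 to 56.1 in whole muscle (4 of 6 tested called higher, 2 lower). Sdc4 alone averaged 118 RPKM of this sum in the 6 h label, and Pax7 0.318. Endothelial markers summed to 113 to 118 RPKM in the label, against 88.0 to 92.1 in muscle (6 of 10 higher, 3 lower). Muscle fibre markers summed to 72084 to 79417 RPKM in the 6 h label, against 126426 to 132735 in whole muscle (0 of 10 higher, 10 lower) and immune markers to 482 to 553 RPKM in the 6 h label, against 732 to 814 in whole muscle (1 of 8 higher, 7 lower). Notch1 and Jag1 are known to act in endothelial cells too, and the part of these cell types was not tested.

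Among the other pathway genes, 27 of 45 tested rose and 12 fell with the 6 h label. Nuclear partners of Notch were among them: Maml1, a Mastermind coactivator, rose 3.87-fold and the histone acetyltransferase Ep300 2.81-fold.

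With the longer labels Notch3 was higher than in whole muscle at both times and Heyl at 1 d, among 6 members tested. Notch1, Notch2 and Jag1 missed the filter. Notch3 stood at 1.83, 2.02, 2.16 and 2.06 RPKM after the 1 d label and 1.70, 1.92, 1.73 and 1.75 RPKM after the 4 d label, against 0.713, 0.677, 0.669 and 0.505 in whole muscle. It was 2.21-fold and 2.0-fold higher (adjusted p = 5.93e-09 and 2.45e-08), without overlap, having passed the filter through the label alone. Genes called higher made up 28.2% of all tested for the 1 d label and 28.1% for the 4 d label. Genes called lower made up 54.7% and 56.4%. At 1 d the groups did not overlap for 2 of 6 members tested, beside 76.5% of all genes, and at 4 d for 3 of 6 members tested, beside 79.6% of all genes. Both comparisons use the same muscle libraries.

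Heyl stood at 2.63, 2.52, 2.31 and 2.48 RPKM after the 1 d label and 1.65, 1.58, 1.46 and 1.53 after the 4 d label, against 2.09, 1.93, 2.01 and 2.18 in muscle. It lay above muscle at 1 d (1.17-fold, adjusted p = 0.00160) and below it at 4 d (1.24-fold, adjusted p = 1.10e-04), each time without overlap. Also lower at 4 d were Hey1 (1.24-fold, adjusted p = 0.00220, libraries overlapping) and Rbpj (1.19-fold, adjusted p = 9.94e-05, apart). With 1 spread estimated from all 8 groups, Notch3 alone kept its call in both comparisons. With library sizes from all reads the log2 changes of Hey1 and Rbpj at 4 d were -0.14 and -0.07 and neither was called, while Rbpj at 1 d was called higher (0.13, adjusted p = 0.0176). The median change of all genes had a log2 value of -0.19 at 1 d and -0.21 at 4 d. Hes1 and Dll1 were called in neither comparison: Hes1 averaged 5.84 ± 0.498 RPKM at 1 d and 6.80 ± 1.04 at 4 d, against 6.22 ± 0.726 in muscle. With library sizes from all reads, however, Hes1 was called higher at 4 d (log2 0.29, adjusted p = 0.00894) and Dll1 at 1 d (0.14, adjusted p = 0.0375).

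Markers moved in the same comparisons. Satellite cell markers summed to 64.2 to 67.8 RPKM at 1 d and 60.7 to 63.6 at 4 d, against 53.2 to 56.1 in muscle (3 of 6 tested higher at each time, 0 and 1 lower). At 1 d Itga7 averaged 30.1 RPKM of this sum, Sdc4 19.2, Cdh15 11.7 and Pax7 0.178. Immune markers summed to 356 to 395 at 1 d and 430.0 to 480.0 at 4 d, against 732 to 814 (8 and 7 of 8 lower, 0 higher). Markers of fibro-adipogenic progenitors summed to 744 to 785 and 856 to 891, against 1241 to 1320 (5 and 4 of 7 lower, 1 and 2 higher). Muscle fibre markers were higher in 5 and lower in 3 of 10 at 1 d, and higher in 4 and lower in 5 at 4 d. The part of these cells was not tested.

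Of the other pathway genes, 22 of 41 tested rose and 17 fell with the 1 d label, and 20 of 40 rose and 14 fell with the 4 d label. Cir1, a corepressor that binds the Rbpj protein, fell 1.91-fold at 1 d and 2.12-fold at 4 d, and at 4 d Adam10, the protease that cuts Notch at the surface, fell 2.17-fold.

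The time course was also read within the labelled libraries. Notch2 stood at 2.63, 2.87, 2.92 and 2.82 RPKM at 6 h, 0.724, 0.891, 0.907 and 0.972 at 1 d and 1.09, 0.930, 0.765 and 0.819 at 4 d. The 6 h libraries lay above all later ones, and Notch2 fell 2.41-fold at 1 d and 2.37-fold at 4 d (adjusted p = 8.26e-10 and 6.09e-09). Jag1, Rbpj, Hey1 and Notch1 fell at both times as well: Jag1 2.17-fold and 2.18-fold, Rbpj 1.96-fold and 2.24-fold, Hey1 1.82-fold and 2.17-fold, Notch1 1.65-fold and 1.66-fold. Heyl was lower at 4 d (1.37-fold, adjusted p = 5.25e-04) and was not called at 1 d, and whether these changes differ was not tested. That makes 5 of 9 members lower at 1 d, beside 50% of all genes, and 6 of 9 at 4 d, beside 52.7%. None was higher, beside 36.2% and 36.1% of all genes. At 1 d the groups did not overlap for 5 of 9 members tested, beside 81.5% of all genes, and at 4 d for 6 of 9 members tested, beside 84.7% of all genes. Notch1, Notch2 and Jag1 passed the filter on low values through the 6 h libraries alone, so for them a fall was built in, at both times. Both comparisons share the 6 h libraries.

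Notch3 was called at neither time. It averaged 1.94 ± 0.114 RPKM at 6 h, 2.02 ± 0.137 at 1 d and 1.77 ± 0.101 at 4 d, with log2 changes from 6 h of 0.04 (SE 0.0601) and -0.10 (SE 0.0557). With library sizes from all reads they were -0.06 and -0.22, the second called. Dll1 and Hes1 were called at neither time. Hes1 at 1 d was called lower without 6 h label replicate 1 (log2 -0.17) and with library sizes from all reads (-0.24), against -0.12 with all libraries as deposited. Without 6 h label replicate 2, Heyl was called higher at 1 d (log2 0.18, against 0.08 with it). Satellite cell markers summed to 138 to 157 RPKM at 6 h, 64.2 to 67.8 at 1 d and 60.7 to 63.6 at 4 d, and muscle fibre markers to 72084 to 79417, 134091 to 146286 and 139465 to 149233. Of the satellite cell markers, 2 of 6 tested were called higher at 1 d and 4 lower. Sdc4 averaged 118 RPKM at 6 h and 19.2 at 1 d, and Itga7 7.89 and 30.1. Immune markers summed to 482 to 553 at 6 h, 356 to 395 at 1 d and 430.0 to 480.0 at 4 d. What part these cells had was not tested.

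Of the other pathway genes tested, 27 of 45 fell and 12 rose at 1 d, and 28 of 45 fell and 10 rose at 4 d. Itch, a ubiquitin ligase that acts on Notch, fell 2.37-fold and 2.87-fold, and Maml1 2.35-fold and 2.26-fold. Ctbp1, a corepressor, rose 3.26-fold at 1 d.

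RNA pulled down after the isolation label was set against the total RNA of isolated cells. Whether all of the pulled-down RNA was made during isolation was not tested. The groups were fitted without pairing, and deviations of same-numbered libraries correlated at 0.15, -0.04, 0.05 and -0.03. Notch3 stood at 29.4, 22.8, 17.3 and 36.6 RPKM in the isolation label, against 74.1, 77.8, 72.6 and 73.8 in isolated cells. The label was lower in every library and spread more widely, and Notch3 fell 2.88-fold (adjusted p = 1.71e-04). Rbpj stood at 8.35, 5.87, 7.58 and 10.2 RPKM in the label, against 22, 22.4, 22.3 and 20.5 in isolated cells, again apart, and fell 2.67-fold (adjusted p = 6.80e-05). Notch2 (2.84-fold), Jag1 (2.49-fold), Heyl (2.49-fold) and Notch1 (2.20-fold) also fell without overlap. Dll1 fell 1.79-fold with overlap (adjusted p = 0.0245), but was not called without isolated cells replicate 1 or 2 or without label replicate 2 or 3 (adjusted p from 8.68e-04 to 0.0726 over the 8 sets with 1 library left out). Thus 7 of 9 members tested were lower, beside 29.7% of all genes, and 0 higher, beside 29.8%. The groups did not overlap for 6 of 9 members tested, beside 58.6% of all genes.

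Of the targets, Hey1 and Hes1 were not called. Hes1 stood at 16.4, 12.4, 21.4 and 30.1 RPKM in the isolation label, against 11.1, 13.5, 13.3 and 13.9 in isolated cells. The groups overlapped through label replicate 2, and the log2 change of 0.54 (SE 0.24, adjusted p = 0.0782) was called without label replicate 2 (0.75) and with limma-voom on recovered reads (0.60), and turned to -0.14 with library sizes from all reads. Hey1 stood at 22.9, 18.9, 15.4 and 32.4 RPKM in the label, against 26.5, 28.7, 27 and 25.3 (log2 change -0.31, SE 0.20, adjusted p = 0.217). It was called lower without label replicate 4 (-0.50) and with library sizes from all reads (-1.0). That scaling moved the median change of all genes from -0.07 to -0.71.

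Markers moved too: satellite cell markers summed to 534 to 939.5 RPKM in the isolation label, against 1298 to 1327 in isolated cells (7 of 8 called lower, 0 higher). Muscle fibre markers summed to 8872 to 35821 RPKM in the label, against 57.5 to 250.4 (10 of 10 higher), and pericyte and smooth muscle markers to 429.9 to 500.0, against 136 to 143 (4 of 8 higher, 2 lower). Immune markers summed to 291 to 422 RPKM in the isolation label, against 24 to 26.1 in isolated cells (6 of 7 higher, 1 lower) and fibro-adipogenic markers to 927 to 1284 RPKM in the isolation label, against 375 to 393 in isolated cells (6 of 7 higher, 1 lower). Their part was not tested. Among the other pathway genes 13 of 47 tested rose and 15 fell. Psenen rose 8.08-fold and Mfng, a Fringe enzyme that adds sugar to Notch, 6.32-fold, while Calcr fell 2.70-fold and Dtx4 2.68-fold.

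The labels of about 6 h in the animal and during isolation differ both in setting and in the RNA they were pulled from, whole muscle and purified cells. Notch3 stood at 2.02, 1.92, 2.05 and 1.79 RPKM in the in vivo label, against 29.4, 22.8, 17.3 and 36.6 in the isolation label, far apart (10.7-fold lower, adjusted p = 2.57e-06). Heyl stood at 1.98, 2.97, 2.07 and 2.37 RPKM, against 30.5, 27.6, 17.3 and 46.7 in the isolation label (10.4-fold lower, adjusted p = 1.04e-05). Hey1 was 4.34-fold, Hes1 2.85-fold, Notch1 1.87-fold and Notch2 1.58-fold lower, so that 6 of 9 members tested were lower, beside 24.4% of all genes, and 0 higher, beside 38.5%. Libraries lay apart for 6 of 9 members tested, beside 62.4% of all genes. The call of Notch2 (adjusted p = 0.0213) was lost without in vivo replicate 1, 2 or 4 (adjusted p from 0.00299 to 0.0587 over the 8 sets with 1 library left out).

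Rbpj stood at 8.63, 9.20, 8.61 and 8.93 RPKM in the in vivo label, against 8.35, 5.87, 7.58 and 10.2 in the isolation label. The levels overlapped, with a log2 change of 0.16 (SE 0.17, adjusted p = 0.427) that turned to -0.37 with library sizes from all reads. Jag1 averaged 2.81 ± 0.207 RPKM in vivo, against 2.06 ± 0.725, with a change of 0.41 that was called higher without isolation label replicate 4 (0.57) and turned to -0.05 with library sizes from all reads. Dll1 was not called (log2 -0.36, SE 0.26), and was called lower with those library sizes (-0.79, adjusted p = 0.0347). Satellite cell markers were lower in 8 of 8, summing to 138 to 157 RPKM in vivo, against 534 to 939.5. Muscle fibre markers summed to 72084 to 79417 RPKM in the 6 h label, against 8872 to 35821 in the isolation label (9 of 10 higher, 0 lower) and immune markers to 482 to 553 RPKM in the 6 h label, against 291 to 422 in the isolation label (6 of 8 higher, 0 lower). Their part was not tested. Of the other pathway genes, 16 of 47 tested were higher and 10 lower, among them Crebbp, a histone acetyltransferase, 3.49-fold higher, and Calcr, 10.3-fold lower.

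**Figure D2:**
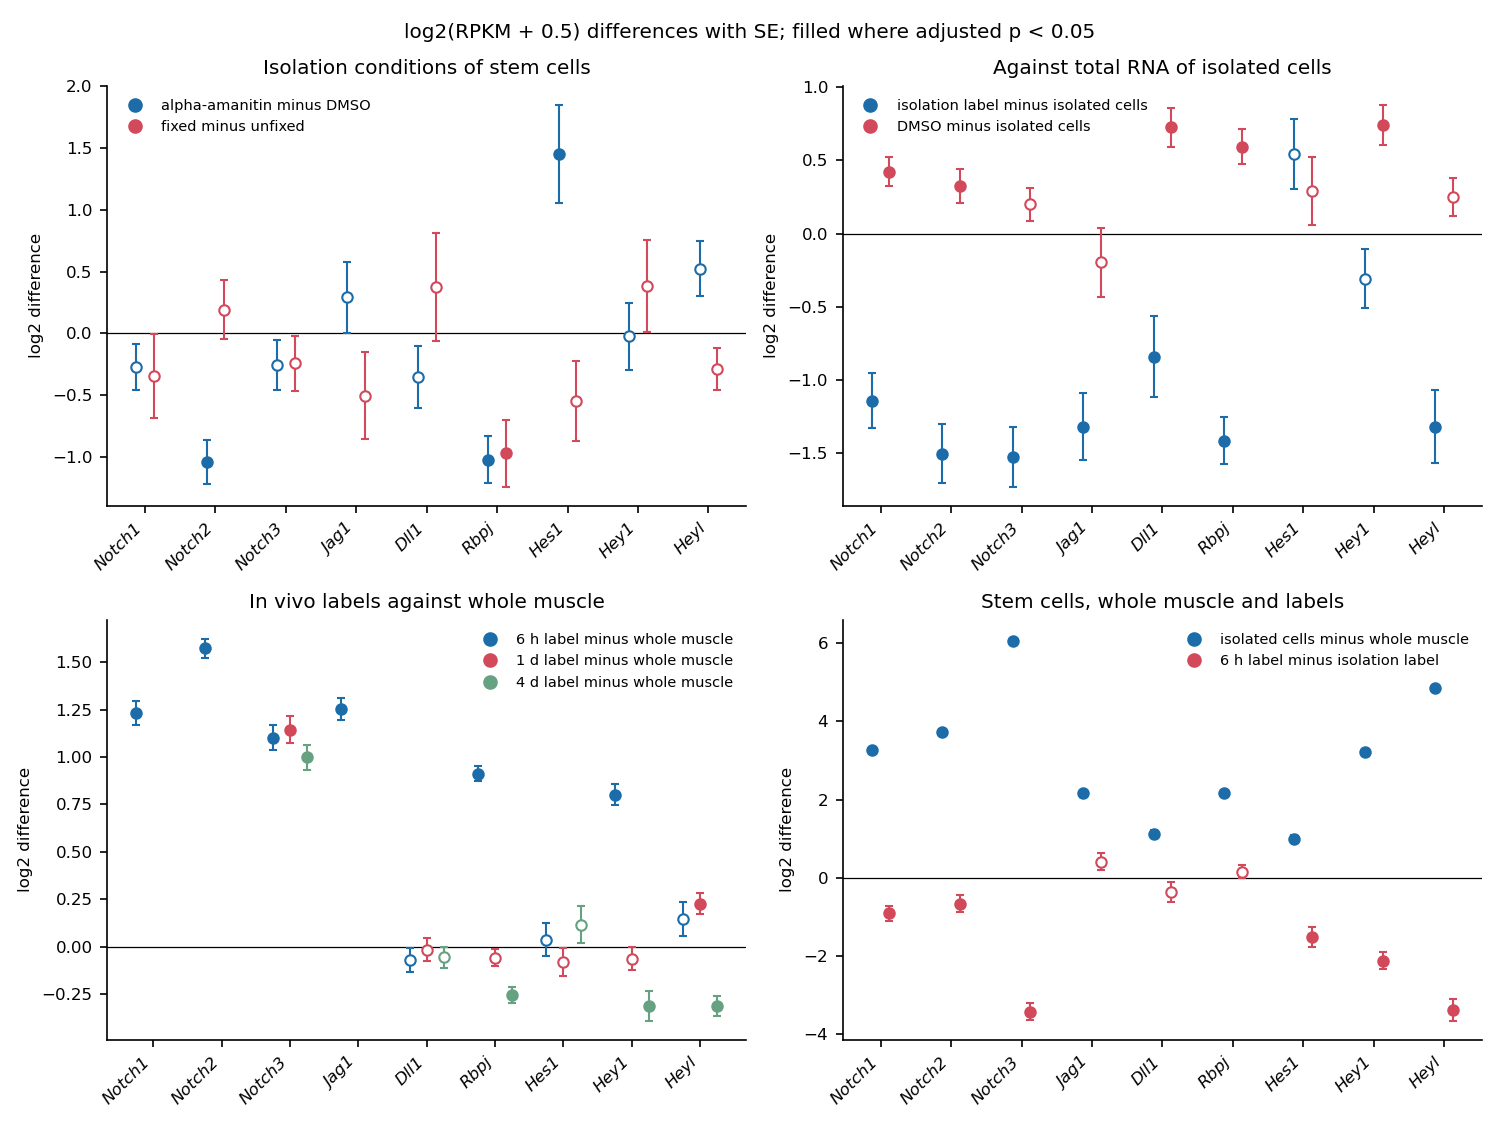
Differences of the 9 members in 9 comparisons on the log2(RPKM + 0.5) scale, with standard errors from limma, filled where the adjusted p was below 0.05; Notch1, Notch2 and Jag1 have no point for the 1 d and 4 d labels, where they missed the filter. Rbpj has filled points below 0 for both alpha-amanitin minus DMSO (-1.02) and fixed minus unfixed (-0.97). Neither was called with the replicate number added to the limma fit (adjusted p = 0.0505 and 0.158).

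Cells isolated with DMSO were also set against the isolated cells of the labelling experiment, which are not treated with it. No batch is labelled. The protocol adds 4tU during isolation of the isolated cells, although their 4tU tag reads no labelling. So DMSO, 4tU and the set of libraries cannot be told apart here. Hey1 stood at 60.5, 39.9, 40.9 and 42.4 RPKM in DMSO cells, against 26.5, 28.7, 27 and 25.3 in isolated cells, apart and 1.67-fold higher (adjusted p = 0.00191). Dll1 was 1.66-fold, Rbpj 1.51-fold, Notch1 1.34-fold and Notch2 1.25-fold higher. That is 5 of 9 members tested, beside 24.7% of all genes, with 0 lower, beside 18.9%. Ranges were separate for 7 of 9 members tested, beside 51.4% of all genes. Among them, Notch3 and Heyl were not called and had narrow gaps (77.84 against 77.78 and 77.72 against 77.37 RPKM). DMSO replicate 1 was the highest library for each of Notch1, Notch2, Notch3, Dll1, Rbpj, Hey1 and Heyl. Without it 8 members were called higher, Notch3 (log2 0.12), Heyl (0.13) and Hes1 (0.54) joining, and Jag1 turned from -0.20 to 0.05, not called. The call of Notch2 (adjusted p = 0.0422) was lost without DMSO replicate 2 or 3 or any 1 library of isolated cells (adjusted p from 0.00567 to 0.10 over the 8 sets with 1 library left out).

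With library sizes from all reads, the log2 changes turned for Notch2 (-0.01), Notch3 (-0.14, called lower), Hes1 (-0.04) and Heyl (-0.09), and Notch1 lost its call (0.10, adjusted p = 0.0639), which left 3 members higher and 1 lower, while the median of all genes moved from 0.12 to -0.22. Satellite cell markers summed to 1355 to 2005 RPKM in DMSO cells, against 1298 to 1327 in isolated cells (4 of 8 higher, 1 lower). Muscle fibre markers summed to 38.9 to 86.8 RPKM, against 57.5 to 250.4 (0 of 9 tested higher, 3 lower). Schwann cell markers were higher in 5 of 6 (0 lower). Pericyte and smooth muscle markers were higher in 8 of 8, summing to 201 to 262 RPKM in DMSO cells, against 136 to 143 in isolated cells. Endothelial markers were higher in 9 of 10, summing to 120.1 to 152, against 57.1 to 60.6. Immune markers summed to 60.0 to 73.6 RPKM in DMSO cells, against 24 to 26.1 in isolated cells (8 of 8 higher, 0 lower) and fibro-adipogenic markers to 648 to 935 RPKM in DMSO cells, against 375 to 393 in isolated cells (6 of 7 higher, 0 lower). Their part was not tested. Of the other pathway genes 19 of 45 tested rose and 0 fell, led by Dll4, a ligand of endothelial cells, 3.52-fold higher, and Adam10, 1.58-fold higher.

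The protocol gives alpha-amanitin during isolation to ask what transcription in that time adds to RNA levels. Rbpj (chromosome 5, 53555779 to 53657445, plus strand) stood at 12.5, 16.2, 17.8 and 18.7 RPKM with alpha-amanitin, against 42.0, 30.4, 30.1 and 31.4 with DMSO. All treated libraries lay below all DMSO libraries, and Rbpj fell 2.03-fold (log2 -1.02, SE 0.19, adjusted p = 0.00554). Notch2 (chromosome 3, 98013538 to 98150367, plus strand) stood at 8.98, 6.67, 9.26 and 9.43 RPKM with alpha-amanitin, against 22.8, 17.2, 17.4 and 15.5 with DMSO, also apart, and fell 2.06-fold (adjusted p = 0.00407). Without alpha-amanitin replicate 1 these changes were -0.90 and -1.07 on the log2 scale, and without DMSO replicate 1 -0.91 and -0.93, all called. With the replicate number added to the limma fit, Rbpj was not called (log2 -1.02, adjusted p = 0.0505).

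Hes1 went the other way. It stood at 20.1, 58.9, 59.3 and 54.8 RPKM with alpha-amanitin, against 9.42, 13.8, 19.9 and 24.7 with DMSO, and rose 2.73-fold (log2 1.45, SE 0.40, adjusted p = 0.0179). RPKM is relative to the rest of the library, so this rise does not show that the amount of Hes1 RNA per cell rose. Nor do the falls of Rbpj and Notch2 show that their RNA per cell fell. For Hes1 the groups overlapped through alpha-amanitin replicate 1, which lay at 20.1 RPKM, below DMSO replicate 4. Without that library the log2 rise was 1.82. The call was lost on leaving out replicate 2, 3 or 4 of the treated cells or DMSO replicate 2 (adjusted p from 5.01e-06 to 0.0641 over the 8 sets with 1 library left out), and with library sizes from all reads (log2 0.94).

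The remaining 6 members were not called. Heyl stood at 88.4, 130.1, 147 and 142 RPKM with alpha-amanitin, against 110.4, 77.7, 79.4 and 81.6 with DMSO (log2 0.52, SE 0.22, adjusted p = 0.0763), and was called higher without alpha-amanitin replicate 1 (0.69) or DMSO replicate 1 (0.64). Hey1 averaged 46.5 ± 13.8 RPKM with alpha-amanitin, against 45.9 ± 9.78, and its change of -0.02 turned to 0.23 and 0.12 without those libraries. Notch3 changed by -0.26 (SE 0.20), Notch1 by -0.27 (0.19), Dll1 by -0.35 (0.25) and Jag1 by 0.29 (0.29) on the log2 scale. So 1 of 9 members tested rose, beside 33.9% of all genes, and 2 fell, beside 10.3%. The groups did not overlap for 2 of 9 members tested, beside 27.8% of all genes.

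These counts depended on the scaling. As deposited, the log2 change had a median of 0.28 over all genes, 0.12 with median-of-ratios factors and -0.29 with library sizes from all reads. With median-of-ratios factors 2 members were higher and 5 lower, Heyl joining the higher and Notch1, Notch3 and Dll1 the lower, and with library sizes from all reads 0 were higher and 6 lower, Notch2 and Rbpj among them each time, and Jag1 turned from 0.29 to -0.19 with the library sizes. Muscle fibre markers were higher in 10 of 10, summing to 2440 to 12199 RPKM with alpha-amanitin, against 38.9 to 86.8 with DMSO, and pericyte and smooth muscle markers summed to 227 to 497, against 201 to 262 (2 of 8 higher, 1 lower). Fibro-adipogenic markers were higher in 4 of 7 (0 lower), immune markers in 4 of 8 (1 lower) and endothelial markers in 3 of 10 (1 lower). Markers of Schwann cells were higher in 2 of 6 (0 lower). Of 8 satellite cell markers, 1 was called higher and 2 lower. Their part was not tested. Of the other pathway genes, 20 of 48 tested rose and 4 fell. Ctbp1 rose 3.93-fold, Neurl1a, a ubiquitin ligase that acts on ligands, 4.90-fold, the Fringe gene Rfng 2.67-fold and the protease gene Furin 2.28-fold.

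Perfusion with fixative before the cells are taken out was set against the usual sort. Rbpj was the single member called: it stood at 8.42, 16.9, 10.7 and 12.4 RPKM in fixed cells, against 21.1, 27.6 and 22.1 in unfixed cells. The groups lay apart, and Rbpj fell 1.96-fold (log2 -0.97, SE 0.27, adjusted p = 0.0285). The call was lost without any 1 of the 3 unfixed replicates or without fixed replicate 5 (adjusted p from 0.0190 to 0.116 over the 7 sets with 1 library left out). So 1 of 9 members tested was lower, beside 10.8% of all genes, and 0 higher, beside 12.2%. Heyl also lay apart, at 113, 129, 130.0 and 129.8 RPKM in fixed cells, against 149, 160.0 and 149, but was not called (log2 -0.28, SE 0.17, adjusted p = 0.254). The groups did not overlap for 2 of 9 members tested, beside 35.8% of all genes.

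Notch3 stood at 79.1, 85.6, 53.6 and 75.0 RPKM in fixed cells, against 71.5, 89.7 and 97.1 in unfixed cells, overlapping (log2 -0.24, SE 0.22). Hes1 stood at 21.8, 31.7, 25.9 and 25.1 RPKM in fixed cells, against 22, 61.0 and 40.8, and its unfixed libraries ran from near the lowest fixed library to well above the highest (log2 -0.54, SE 0.32, adjusted p = 0.257). Hey1 split the fixed group, with 35.5, 81.0, 104 and 38.4 RPKM, against 43.5, 40.6 and 50.2 in unfixed cells. Jag1 stood at 5.17, 8.95, 6.22 and 7.82 RPKM in fixed cells, against 6.05, 16 and 10.2, and Dll1 at 4.91, 18.3, 13.0 and 10.3, against 5.94, 12.6 and 6.79, both overlapping. The other changes were -0.34 for Notch1, 0.19 for Notch2, -0.50 for Jag1 and 0.37 for Dll1, with standard errors of 0.34, 0.24, 0.35 and 0.43.

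Endothelial markers were lower in 8 of 10, summing to 12.1 to 40.8 RPKM in fixed cells, against 79.2 to 298 in unfixed cells. Satellite cell markers summed to 1089 to 1513 RPKM in fixed cells, against 2279 to 2910 (3 of 8 called higher, 2 lower), and pericyte and smooth muscle markers to 463 to 1456, against 330.0 to 671 (1 higher, 3 lower of 8). Their part was not tested. Of the other pathway genes 5 of 50 tested rose and 3 fell. Hes6, a Hes family gene known to promote differentiation, rose 8.20-fold to 121 ± 42.9 RPKM, against 13.7 ± 2.01 in unfixed cells. Cir1 rose 3.62-fold and Psenen 2.61-fold, and Dll4 fell 4.99-fold, to 0.628 ± 0.687 RPKM in fixed cells, against 4.94 ± 2.82.

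**Figure D3:**
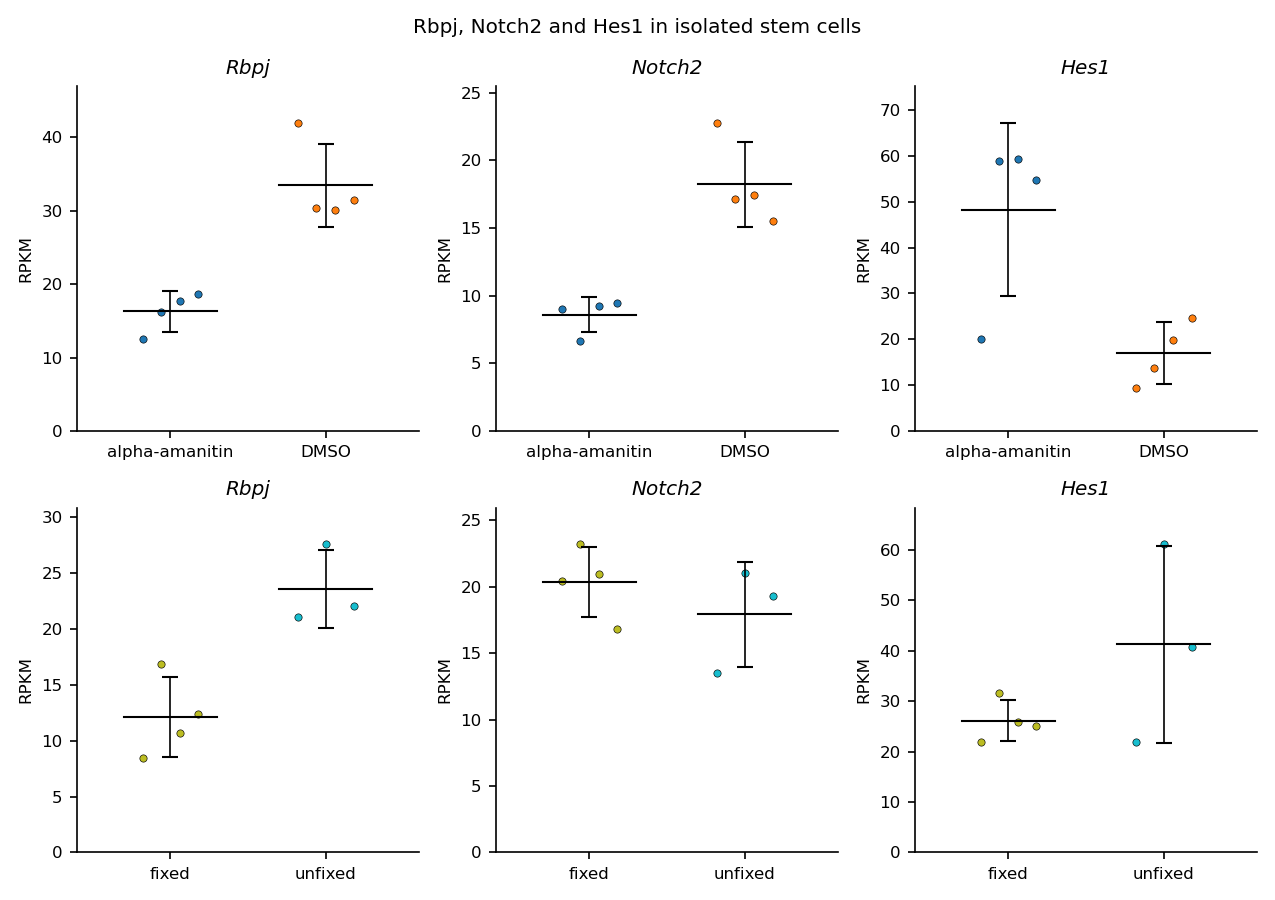
Rbpj, Notch2 and Hes1 in RPKM in each library of alpha-amanitin and DMSO cells (top row, n = 4 each) and of fixed and unfixed cells (bottom row, n = 4 and 3), with group means and SD. Rbpj averages 16.3 ± 2.75 RPKM with alpha-amanitin, against 33.5 ± 5.68 with DMSO. In fixed cells it averages 12.1 ± 3.58 RPKM, against 23.6 ± 3.49 in unfixed cells. Its libraries overlap in neither pair, beside 27.8% and 35.8% of all genes without overlap. The Rbpj call in fixed cells was lost in 4 of 7 sets with 1 library left out.

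The make-up of the receptors and of the targets differed between groups, as shares of their summed RPKM. Notch3 took 81.4 ± 0.709% of receptor RPKM with alpha-amanitin (SD over libraries), against 75.6 ± 1.38% with DMSO. In the labels given in vivo it took 32 ± 1.99% at 6 h, 57.7 ± 1.57% at 1 d and 54.2 ± 2.88% at 4 d, against 77.0 ± 1.87% in the isolation label, 77.7 ± 0.173% in isolated cells and 41.7 ± 3.32% in whole muscle. It took 70.8 ± 2.94% in fixed cells, against 74.4 ± 2.57% in unfixed cells. At 6 h the leading receptor was Notch2, with 46.2 ± 0.981%.

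Hes1 took 21 ± 4.17% of the RPKM of the 3 targets with alpha-amanitin, against 11.6 ± 4.96% with DMSO. In the in vivo labels its share was 47.9 ± 2.54% at 6 h, 54.9 ± 2.26% at 1 d and 66.3 ± 4.47% at 4 d, against 58.1 ± 2.57% in whole muscle, where Heyl took 19.3 ± 1.55%. It took 27.9 ± 8.18% in the isolation label, against 11.5 ± 1.16% in isolated cells. Jag1 took 64.7 ± 2.30% of the RPKM of the 2 ligands in the 6 h label, against 35.3 ± 1.07% in whole muscle. The shares are descriptions without a test.

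**Figure D4:**
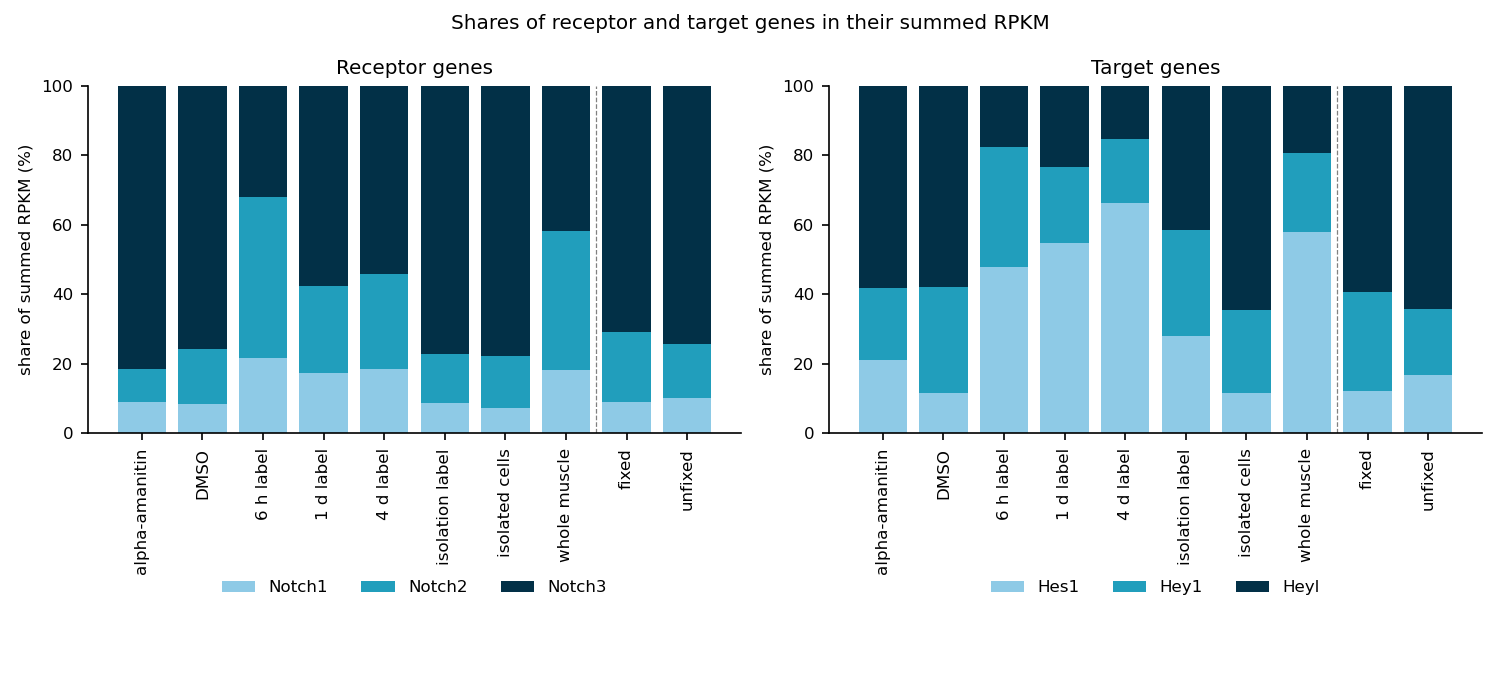
Mean shares (%) of the 3 receptors and the 3 targets in their summed RPKM, by group, with 4 libraries per group and 3 for unfixed cells. Notch3 and Heyl take most of their set in every group of purified cells except that Heyl takes 41.3 ± 6.47% of the targets in the isolation label.

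Members also differed in how alike their levels ran over the 32 libraries of the larger table. Pearson correlations of log2(RPKM + 0.5) are given as descriptions, since libraries of a group share their source, and groups of purified cells and of muscle lie far apart. Notch3 and Heyl ran closest (r = 0.984), then Hey1 and Heyl (0.982) and Notch1 and Notch2 (0.980). Hes1 ran least like the others, from 0.611 with Rbpj upward. Among 8599 genes searched, the 3 most like Notch3 were Hmcn2 (0.998), Olfml2a (0.994) and Itpkc (0.993), and the 3 most like Rbpj were Tnpo1 (0.991), Rlim (0.99) and Zeb2 (0.989). The 3 most like Hey1 were Litaf (0.994), Fos (0.994) and Zfp36l1 (0.994), and for Heyl they were Arid5a (0.994), Ssc5d (0.993) and Egr1 (0.993). For Hes1 they were Jdp2 (0.950), Mxra7 (0.950) and Btg3 (0.948). The closest gene was Kirrel for Notch1 (0.996), Plxna2 for Notch2 (0.995), Ythdc1 for Jag1 (0.975) and Uggt1 for Dll1 (0.961).

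Exons of other annotated genes overlap those of Notch1, Notch2, Notch3 and Dll1, and whether the counting used strand was not found in the labels, so reads of those neighbours could stand among theirs. For Dll1 the overlap with A930024N18Rik, on the opposite strand, covers 867 of 4219 exon bases. Hes1, Hey1, Heyl, Jag1 and Rbpj have no such overlap.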

How the data were processed

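Libraries were made by oligo(dT)-primed reverse transcription and sequenced as 101 bp paired ends, per the labels' protocols. The submitters' processing notes name Trim Galore, STAR, featureCounts, Subread, edgeR and mm10. The authors deposited RPKM values in 2 separately normalised tables (32 and 7 libraries), so levels are compared within a table. RPKM values came back to whole reads within 0.1 of a read, with library scaling factors of 0.612 to 1.95 (labelling) and 0.903 to 1.01 (fixation). The header of the larger table stands 1 cell left of its values. No pair of replicates held identical values.

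Each of 11 comparisons was fitted to all genes with limma 3.58.1 (R 4.3.3) on log2(RPKM + 0.5), using the libraries of its groups and genes at 1 RPKM or more in 3 libraries. Calls are Benjamini-Hochberg adjusted p below 0.05, and every adjusted p is from limma. Folds are on that scale and understate changes of low genes. The fitting was tested on simulated counts with the same spread in both groups, which does not cover groups of unequal spread as found here. Alternatives were other library scalings, filters and pseudocounts, limma-voom, a replicate block, 1 fit over all 8 groups and leaving out each library. Members and lists were chosen with earlier results of these data known. Pathway genes named are up to 4 per comparison, those called with the smallest adjusted p; some that the rule names are not reported here. Likeness was searched among genes at 5 RPKM or more in a group mean, leaving out unnamed gene models. Marker sums add RPKM over a list.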

Additional observations from a re-analysis of the deposited data

Results flagged for a closer look

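Each set of 4 libraries (a member in a group) was searched for a gap above Dixon's limit. The gap, from 1 library to the nearest other, was taken as a share of the whole range. Chance alone passes the limit in about 1 in 20 independent sets. Members share libraries here, so that rate does not apply to the count. Among 81 sets, 9 held such a library. Of these, 4 were DMSO replicate 1, always the highest: Notch1 at 11.7 RPKM with the other libraries at 8.95 to 8.99, Rbpj at 42.0 with the others at 30.1 to 31.4, Hey1 at 60.5 with the others at 39.9 to 42.4, and Heyl at 110.4 with the others at 77.7 to 81.6.

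Alpha-amanitin replicate 1 was the lowest of its group for Hes1, at 20.1 RPKM with the others at 54.8 to 59.3, and for Dll1, at 3.0 with the others at 6.43 to 7.0. Alpha-amanitin replicate 2 was the lowest for Notch2, at 6.67 RPKM with the others at 8.98 to 9.43. Isolation label replicate 4 was the highest for Dll1, at 3.96 RPKM with the others at 1.44 to 1.83. Fixed replicate 1 was the lowest for Heyl, at 113 RPKM with the others at 129 to 130.0.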

How the results depend on the processing

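Of all changes of single members recomputed under the alternatives, 1466 kept their direction and side of the threshold, 30 passed it newly, 33 lost it and 34 turned in sign, and the cause was not tested. Counts of members called left the range of 1.5 times in 5 comparisons. Alpha-amanitin against DMSO gave 7 with median-of-ratios factors and 6 with library sizes from all reads, in place of 3. The 1 d label against whole muscle gave 4 with those library sizes, 4 without a filter or with one of 50 reads, which admit Notch1, Notch2 and Jag1, and 1 with a single spread over 8 groups, in place of 2. The 4 d label against whole muscle gave 7 without a filter or with 50 reads and 1 with the single spread, in place of 4. Fixed against unfixed cells gave 0 with the replicate block, in place of 1, and DMSO against isolated cells 8 without DMSO replicate 1, in place of 5.

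With 1 library left out, counts ran from 2 to 4 for alpha-amanitin against DMSO, 4 to 8 for DMSO against isolated cells, 6 to 8 for the isolation label against isolated cells, and 9 to 9 for isolated cells against muscle. They ran from 6 to 7, 2 to 2 and 4 to 4 for the 6 h, 1 d and 4 d labels against muscle, from 5 to 7 for the 6 h against the isolation label, from 5 to 6 and 6 to 6 for 1 d and 4 d against 6 h, and from 0 to 1 for fixation.

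Signs turned with library sizes from all reads, on the log2 scale, for Jag1 (-0.19) with alpha-amanitin against DMSO; for Notch2 (-0.011), Notch3 (-0.14), Hes1 (-0.038) and Heyl (-0.092) in DMSO against isolated cells; and for Hes1 (-0.14) in the isolation label against isolated cells. Against muscle they turned for Dll1 at 6 h (0.18), for Dll1 (0.14), Rbpj (0.13), Hes1 (0.12) and Hey1 (0.11) at 1 d, and for Dll1 (0.085) at 4 d. They also turned for Jag1 (-0.045) and Rbpj (-0.37) in the 6 h against the isolation label, for Notch3 (-0.064), Dll1 (-0.047) and Heyl (-0.031) at 1 d against 6 h, and for Dll1 (-0.10) and Hes1 (-0.069) at 4 d against 6 h. Median-of-ratios factors turned Hes1 (-0.17) and Heyl (-0.036) at 6 h and Dll1 (0.0018) at 1 d against muscle. With 1 library left out, Hey1 ran from -0.14 to 0.23 with alpha-amanitin, Jag1 from -0.43 to 0.055 in DMSO against isolated cells, Hes1 from -0.038 to 0.10 at 6 h and Dll1 from -0.053 to 0.020 at 1 d against muscle, and at 4 d against 6 h Dll1 from -0.023 to 0.049 and Hes1 from -0.011 to 0.15.

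In no comparison did every same-numbered pair correlate above 0.1 in its deviations, which does not exclude that replicate numbers pair samples. For alpha-amanitin against DMSO these correlations were -0.59, -0.40, -0.57 and -0.11. For the 4 d label against muscle they were 0.23, 0.04, 0.24 and 0.10. With the replicate block, Rbpj with alpha-amanitin, Notch2 in DMSO against isolated cells and Rbpj in fixed cells were not called (adjusted p = 0.0505, 0.0573 and 0.158), Hes1 at 4 d against muscle was called higher (0.0320), and Notch1 in fixed cells turned to 0.045. Over all genes, the block gave 1825 calls for fixation in place of 2951 and 1978 for alpha-amanitin in place of 6058. The single spread gave 9291 for alpha-amanitin, 2338 for DMSO in place of 6170, 5527 for 1 d against muscle in place of 9250, and 6037 for 4 d in place of 9586. Without 1 library, alpha-amanitin gave 2828 to 10660.

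Library sizes from all reads lowered the median of all genes by 0.64 in the isolation label against isolated cells and raised it by 1.53 in isolated cells against muscle. With them the share of higher among called genes was 42.3% with alpha-amanitin, against 76.7% as deposited, 14.6% against 56.6% for DMSO, 27.2% against 50.1% for the isolation label, 78.7% against 51.2% for isolated cells against muscle, and 34.5% against 61.2% for the 6 h against the isolation label. Against muscle it was 65.4%, 50.2% and 45.1% at 6 h, 1 d and 4 d, against 50.6%, 34% and 33.3%. Depth limits the isolation label most, where Dll1 and Jag1 had as few as 19 and 20 reads in a library.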
